A study of Mus musculus with 17 samples.

Results

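The response of mouse mammary cells to a dominant-negative form of the chromatin remodeler Brg1 was read from 4 of the 17 expression arrays of the series. These were the 2 arrays titled as expressing dnBrg1 (induced) and the 2 titled as not expressing it (repressed), all from one derivative of the 3134 line, a mouse mammary epithelial cell line. A Flag-tagged dnBrg1 had been stably integrated into 3134Tet cells, which already carried a tetracycline-regulated transactivator. Stocks of both groups were held in tetracycline at 5 µg/ml to keep the transactivator and dnBrg1 silent, and the cells were then grown for 48 h in charcoal-stripped serum with the drug (repressed) or without it (induced). Drug withdrawal, transactivator and dnBrg1 therefore change together in these 4 arrays and cannot be told apart within them. The labels do not give the mutation in dnBrg1, the species of its cDNA, or whether the line is 1 clone or a pool. Nor is it stated that replicates were grown apart. Each p-value reflects how far 2 arrays of a group differed, both for its gene and, through limma's shared estimate, over all genes. That spread may be purely technical.

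Brg1, the product of Smarca4, is the ATPase of SWI/SNF complexes, which slide and evict nucleosomes at promoters and enhancers so that transcription factors can reach their sites. Brm, the product of Smarca2, is its close relative and can fill the same place in the complex. A dominant-negative ATPase is built to enter the complex without driving remodeling. In 3134 cells SWI/SNF has long been studied for its part in gene activation by steroid receptors, and the series set Brg1 beside 2 other remodeler ATPases, Chd4 of the NuRD complex and Snf2h (gene Smarca5) of ISWI complexes.

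Values are deposited log2 signals, and a change is the mean of the induced arrays minus the mean of the repressed arrays. An array gives no read depth, so precision rests on 2 arrays per group. Over 19938 singly named genes the 2 repressed arrays correlated at r = 0.997 and differed by a median of 0.123 (log2, absolute), and the 2 induced arrays correlated at r = 0.998 and differed by a median of 0.0727. Smarca4 itself read 9.66 and 9.46 in the repressed and 9.61 and 9.73 in the induced arrays. Those groups overlap, and the change of 0.12 ± 0.101 (SE) was not called (limma adjusted p = 0.533). The probe set therefore gives no check of induction, and whether it can read the dnBrg1 transcript is not given in the sources used here. In the dnChd4 line the probe set of Chd4 rose by 1.82, against a change of -0.22 in the dnBrg1 line that was not called.

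Luminal markers of the labelled epithelial type read on average below the mean of all genes, and Gata3 was by far the brightest of them. Gata3, a luminal transcription factor, read 9.44 and 9.09 in repressed and 9.11 and 9.18 in induced arrays, while Epcam and Krt19, both epithelial, lay among the dimmest 30% of genes. Of 17 measured luminal markers 5 were that dim, as were 2 of 13 basal, 5 of 13 fibroblast, 8 of 14 macrophage, 4 of 11 endothelial and 4 of 8 adipocyte markers. The mean level of the luminal list was 5.31 and 5.33 in repressed and 5.34 and 5.25 in induced arrays, and that of the macrophage list 4.79 and 4.83 against 4.81 and 4.78. Fibroblast markers averaged 6.52 and 6.60 in repressed against 6.28 and 6.25 in induced arrays, and basal markers 5.44 and 5.52 against 5.29 and 5.24. The mean of all genes was 6.29 and 6.30 against 6.28 and 6.27. Some fibroblast markers were bright, such as Col1a2 at 11.60 and 11.86 and Pdgfrb at 8.73 and 8.60 in repressed arrays. No endothelial or adipocyte marker was called. In bulk RNA, fewer cells of a type and less RNA per cell cannot be told apart.

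Induction was followed by change in a large share of the measured genes. Of 19938 genes, 1622 rose (8.14%) and 1316 fell (6.6%) at a limma adjusted p under 0.05, and 5401 had an unadjusted p under 0.05. Together 14.7% were called, the share against which counts of called members in the gene lists below are to be read. Most changes were small: the median absolute change of a called gene was 0.49 and the smallest 0.30 (log2). At 1.5-fold or more, 512 genes rose and 463 fell, and at 2-fold or more 77 rose and 79 fell. The median change of all genes was -0.03. The induced and repressed arrays did not overlap in any of the 2938 called genes, nor in 53.4% of all genes. Such a gap therefore adds nothing to a call. In 25 of the genes that rose, the repressed mean lay under 4.74, the level of the dimmest 30% of genes, so that their changes start near the foot of the signal range.

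How firm a call is depends on which arrays share the estimate of spread. Fitting the 12 arrays of the 3 dominant-negative lines together called 2839 genes, 2631 of them among the 2938. Dropping any 1 dnBrg1 array from that fit left between 1353 calls (without induced replicate 2) and 2175 (without repressed replicate 1). There were 1741 without repressed replicate 2 and 1397 without induced replicate 1. In all, 1063 of the called genes (637 higher, 426 lower) stayed called whichever dnBrg1 array was dropped; they are termed retained calls below. With all 17 arrays in 1 fit only 68 genes were called, all of them among the 2938. The control line, with 5 arrays, carries the transactivator alone. Its arrays differed by a median of up to 0.221 within one label, against 0.0727 to 0.156 in the other lines. They were kept out of the main tests because they did not follow their labels in earlier results of these data. They do enter the fits of 17 arrays and the ranges given below for the 13 arrays of other lines.

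**Figure D1:**
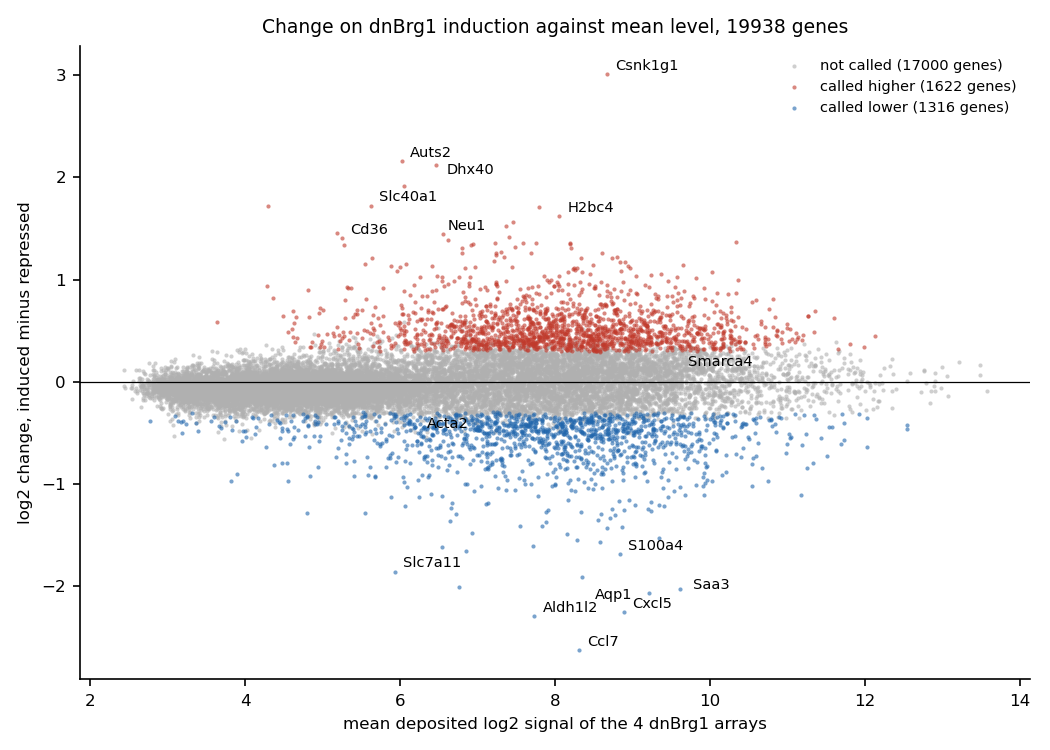
Log2 change on dnBrg1 induction (vertical axis) against the mean deposited log2 signal of the 4 dnBrg1 arrays (horizontal axis) for 19938 genes. Red points are the 1622 genes called higher, blue points the 1316 called lower and grey points the rest; Csnk1g1 stands highest at 3.01 and Ccl7 lowest at -2.63, while Smarca4 lies in the grey band.

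Csnk1g1 and Auts2 had the highest changes. Csnk1g1 encodes a membrane-associated casein kinase, and it read 7.30 and 7.02 in the repressed and 10.13 and 10.21 in the induced arrays. Both induced values stood far above both repressed values and above the 6.97 to 7.58 of the 13 arrays of other lines. The rise was 8.05-fold (log2 3.01 ± 0.11 SE, limma adjusted p = 4.63e-05), and no other of the 8 casein kinase genes measured was called. Auts2, a nuclear protein found in a variant of Polycomb repressive complex 1, read 4.98 and 4.91 when repressed and 6.97 and 7.23 when induced, 4.47-fold higher (limma adjusted p = 0.00011). The other lines held it between 4.61 and 4.98, so its induced arrays were again apart from all others. Among 25 Polycomb genes, 3 rose and 3 fell (24.0% called, against 14.7% of all genes). Those beside Auts2 were small changes such as Jarid2 at 0.40 (higher) and Ezh2 at -0.61 (lower).

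Several genes of transport and of the cell surface were among the 15 highest changes. Slc40a1 encodes ferroportin, the only known cellular iron exporter, and went from 4.77 and 4.75 to 6.58 and 6.39, a 3.31-fold rise (limma adjusted p = 0.000163). Cd36, a receptor that takes up fatty acids and oxidised lipoproteins, went from 4.48 and 4.60 to 5.91 and 5.98. Its repressed mean of 4.54 lay under the 4.74 of the dimmest genes, so the fitted 2.65-fold starts near the foot of the signal range. In both genes the repressed dnBrg1 arrays already lay above all 13 arrays of the other lines, whose highest value was 4.19 for Slc40a1 and 3.56 for Cd36. Hs3st1, which places a rare sulfate on heparan sulfate chains, behaved in the same way, with 5.88 and 5.78 when repressed, 7.23 and 7.32 when induced and at most 5.07 elsewhere. Mfsd13a, a member of the major facilitator family of transporters, rose 2.96-fold from 6.66 and 6.70 to 8.28 and 8.21, and Atp8b5, a member of the phospholipid flippase family, rose 2.61-fold.

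Dhx40, a DEAH-box helicase, rose 4.35-fold from 5.32 and 5.49 to 7.50 and 7.56. Tcp11l2 went up 3.77-fold from 5.16 and 5.04 to 6.96 and 7.06. Its induced level lay within the range of the other lines, whereas Dhx40 exceeded it. Cyp2b13, a cytochrome P450, rose 3.30-fold but started from 3.51 and 3.36, under the 4.74 of the dimmest genes. Serpini1 (neuroserpin, a protease inhibitor) rose 2.75-fold from a mean of 4.46, also under that level, with a wider gap between its induced arrays, at 5.62 and 6.21. Pwwp3b rose 2.66-fold.

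Ccl7, Aldh1l2 and Cxcl5 had the deepest falls. Ccl7, a chemokine that draws monocytes, read 9.52 and 9.73 in the repressed and 6.94 and 7.06 in the induced arrays, a 6.17-fold fall (limma adjusted p = 4.63e-05). Cxcl5, which draws neutrophils, fell 4.77-fold from 10.08 and 9.96 to 7.81 and 7.72. Cxcl12, the ligand of the receptor Cxcr4, fell 3.75-fold from 9.40 and 9.21 to 7.42 and 7.38. Ccl2 fell 1.77-fold and Cxcl3 by 0.78 on the log2 scale. In all, 5 of the 20 chemokine genes measured fell and none rose (25.0% called, against 14.7% of all genes). All 5 were retained calls, but only Ccl7 and Cxcl12 were called with all 17 arrays. The induced levels of Ccl7, Cxcl5 and Ccl2 lay within the range of the 13 arrays of other lines. The lowest values in those arrays were 6.18, 4.84 and 5.62, all of them from the control line. In the arrays of the dnChd4 and dnSnf2h lines the lowest were 9.51, 8.61 and 10.11. The induced dnBrg1 arrays lay below these in all 3 genes.

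Acute-phase proteins, which many cells secrete in inflammation, gave a like count: 5 of 18 fell and none rose (27.8% called, against 14.7% of all genes). Saa3 (serum amyloid A3) went from 10.60 and 10.66 to 8.59 and 8.61, a 4.08-fold fall. Lcn2, which binds iron-carrying siderophores, fell 2.89-fold from 10.20 and 10.02 to 8.68 and 8.47. Cp, the copper ferroxidase ceruloplasmin, fell 4.02-fold, Ptx3, a soluble pattern recognition protein, 2.35-fold, and Orm3, an orosomucoid, fell by 1.28. The median changes of the chemokine and acute-phase lists were only -0.16 and -0.21, against -0.03 for all genes, and their other 15 and 13 members were not called.

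Genes of NF-kB, a factor that drives many of these secreted proteins, did not share one direction. Of 16 measured, 4 rose and 3 fell (43.8% called, against 14.7% of all genes). The rises included Tnip1 at 0.62, Nfkbib at 0.61 and Relb at 0.50, and Bcl3 fell by 0.62. Relb, a subunit of the alternative pathway, read 7.90 and 7.91 when repressed and 8.38 and 8.43 when induced. Of 25 interferon response genes, 6 rose and none fell (24.0% called), with a list median of -0.09. The highest of them was Irf7 at 0.58, and none of the 6 was a retained call (for Irf7, adjusted p = 0.0522 in the least favourable 12-array fit without 1 array).

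Aqp1, a water channel, fell 4.17-fold from 10.26 and 10.23 to 8.21 and 8.14, below the 8.99 to 10.39 of the other lines. S100a4, a calcium-binding protein of motile mesenchymal cells, fell 3.21-fold from 9.67 and 9.69 to 7.99 and 8.001, again below every array of the other lines. Within the 15 S100 genes measured the directions split, with S100a7a at 0.96, S100a13 at 0.88 and S100a16 at 0.64 among the 4 that rose. Eno3, the muscle form of enolase, fell 2.92-fold, and Ptn, the growth factor pleiotrophin, fell 3.04-fold. Snhg5, a host gene of small nucleolar RNAs, fell 2.97-fold.

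The lysosome list had the highest median change of the 46 lists described. Lysosomal hydrolases break down material delivered by endocytosis and autophagy, and the vacuolar ATPase acidifies the organelle. Of 36 measured lysosomal genes 22 rose and 1 fell, with a median change of 0.43 against -0.03 for all genes. Neu1, the lysosomal sialidase, went from 6.54 and 6.68 to 8.20 and 8.07, a 2.88-fold rise (limma adjusted p = 0.000238). Smpd1, the acid sphingomyelinase, rose 2.16-fold from 8.45 and 8.36 to 9.56 and 9.48. The vacuolar ATPase subunits Atp6v0d1 and Atp6v1a rose 2.33-fold and 1.75-fold. Of the 22, 14 were retained calls.

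Autophagy genes followed in the same direction, 13 of 30 higher and none lower with a median of 0.25. Gabarapl2, which builds the autophagosome membrane and recruits cargo, rose 1.83-fold from 8.55 and 8.67 to 9.53 and 9.43. Bnip3, a mitophagy receptor, rose 1.70-fold, Atg4a by 0.64 and Atg12 by 0.59. Of the 13, 7 were retained calls. With all 17 arrays in 1 fit limma called 0 lysosomal genes, with 12 higher at an unadjusted p under 0.05, and 1 autophagy gene.

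Many lysosomal promoters carry an E-box that factors of the TFEB family bind. The letters CACGTGA, on either strand, were found in 11 of 30 lysosomal promoter windows (36.7%), in 7 of the 17 of called-higher members, and in 5.3% of the 15614 windows of all tested genes. In the autophagy list they were in 2 of 24 windows (8.3%) and in 1 of 10 windows of members that rose. A window runs from 250 bases before to 50 after the RefSeq start. Tfeb itself was not called. The bases just upstream of the start of Lamp1, a major lysosomal membrane protein that rose by 0.49, and of Mcoln1, the lysosomal calcium channel that rose by 0.43 (not a retained call), are shown because they hold several copies. They are the plus strand of chr8:13159051-13159160 and chr8:3500409-3500518 (RefSeq, GRCm38.p6), picked after their values were seen, with the E-box in either orientation in capitals:
Lamp1: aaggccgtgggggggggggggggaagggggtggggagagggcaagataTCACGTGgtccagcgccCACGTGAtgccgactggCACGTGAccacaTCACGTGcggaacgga
Mcoln1: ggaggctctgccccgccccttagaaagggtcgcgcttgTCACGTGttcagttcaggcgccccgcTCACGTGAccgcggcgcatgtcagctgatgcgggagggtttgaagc
The capitals run together in Mcoln1 where a copy on one strand overlaps a copy on the other. A match describes the letters only and is not evidence of binding.

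Iron and heme genes rose more often than they fell, 9 against 1 of 27 (37.0% called, against 14.7% of all genes). Beside Slc40a1, Hmox1 (heme oxygenase, which opens the heme ring) rose 2.57-fold from 6.61 and 6.47 to 7.90 and 7.90. Blvra, which reduces the biliverdin that heme oxygenase makes, rose 1.51-fold, and Alas1, the first enzyme of heme synthesis, rose 1.44-fold. Of the 9, 4 were retained calls. Hmox1 is also a target of NRF2, the oxidative stress factor. Of 21 other NRF2 targets measured 5 rose and 4 fell (42.9% called), with Gstm5 at 1.15 and Slc7a11 at -1.85. The part of NRF2 in the rise of Hmox1 was not tested. Gstm genes are close copies of one another, so probe sets may read more than 1 of them.

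The cell-division programme fell. Of 30 measured genes of G2 phase and mitosis 29 fell and none rose, with a median of -0.76, and the exception, Bub1, had a change of -0.35 that was not called. Cenpf, a kinetochore protein, read 9.14 and 8.80 when repressed and 7.65 and 7.74 when induced, a 2.42-fold fall (limma adjusted p = 0.000859). Kif23, a kinesin of cytokinesis, fell 2.39-fold from 9.63 and 9.42 to 8.31 and 8.22. Aurkb, the kinase that corrects chromosome attachment, went from 9.61 and 9.58 to 8.70 and 8.70. The induced levels of all 3 lay within the range of the other lines. Between 22 and 24 of the 30 were called with 12 arrays when any 1 dnBrg1 array was dropped. With all 17 arrays limma called 0 of the 30, with 6 lower at an unadjusted p under 0.05.

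Genes of DNA replication showed the same direction, 26 of 32 lower and none higher, at a median of -0.55. Tk1, thymidine kinase, fell 1.96-fold from 9.20 and 9.23 to 8.25 and 8.25. Pold1, the catalytic subunit of a replicative polymerase, fell 1.93-fold, and the helicase subunit Mcm7 by 0.79 on the log2 scale. Among G1 regulators Ccnd1 (cyclin D1) fell 1.80-fold from 11.68 and 11.67 to 10.84 and 10.82, and Cdk6, E2f8 and Rbl1 fell with it, so that 8 of 24 fell and 1 rose. Of 25 p53 targets 9 rose and none fell (36.0% called, against 14.7% of all genes). The death receptor Tnfrsf10b led them at 0.92, but only 2 of the 9 were retained calls.

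Replication-dependent histone genes, which are transcribed in S phase, were lower in 13 of 20 cases, with a median of -0.72. The linker histone genes H1f5 and H1f1 fell 2.15-fold and 2.05-fold, and H2bc14 fell 2.26-fold. H2bc4 stood alone in rising, from 7.24 and 7.24 to 8.89 and 8.84, 3.08-fold (limma adjusted p = 0.00011). These genes are near copies, so a probe set may read several of them. With all 17 arrays limma called 0 members of the replication, G1 and histone lists, with 0, 2 and 6 lower at an unadjusted p under 0.05.

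Promoters of mitotic genes often pair CCAAT boxes with a cell-cycle homology region (CHR). The CHR letters TTTGAA were found on either strand in 75.0% of 24 promoter windows of the G2 and mitosis list, against 17.3% of all windows, and CCAAT in 75.0% against 41.7%. For the replication list, the E2F letters TTCCCGC stood in 46.2% of 26 windows against 7.4% of all, and in none of the 24 mitotic windows. Among replication members that fell they stood in 9 of 21 windows (42.9%), no larger a share than in the list. Among mitotic members that fell, CHR letters stood in 18 and CCAAT in 17 of 23 windows. Top2a, the topoisomerase that untangles chromosomes (-0.91), and Cdc20, the activator of the anaphase-promoting complex (-0.83), are shown because both elements lie close to their starts. These are the minus strand of chr11:99024190-99024299 and chr4:118437344-118437453 (RefSeq, GRCm38.p6), picked after their values were seen, with CCAAT and CHR letters of either orientation in capitals:
Top2a: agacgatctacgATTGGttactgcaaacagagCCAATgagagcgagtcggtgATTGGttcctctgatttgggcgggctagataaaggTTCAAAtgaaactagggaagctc
Cdc20: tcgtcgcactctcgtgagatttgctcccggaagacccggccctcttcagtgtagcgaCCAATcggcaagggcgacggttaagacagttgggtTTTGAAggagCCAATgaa
In Top2a 3 CCAAT boxes precede 1 CHR at position -23, and in Cdc20 1 box precedes and 1 follows the CHR at position -18, counted from the start.

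Genes of amino acid supply fell more often than they rose. ATF4 is the factor that raises amino acid synthesis and import when cells are short of them, and 10 of 26 genes of its programme fell while 2 rose. Trib3, a pseudokinase that ATF4 induces, read 8.51 and 8.56 when repressed and 7.29 and 7.28 when induced, 2.39-fold lower. Slc7a11, which imports cystine, fell 3.62-fold from 6.97 and 6.75 to 4.93 and 5.08. The amino acid transporters Slc6a15, Slc6a9 and Slc1a5 fell 3.06-fold, 1.98-fold and 1.64-fold. Atf4 itself fell by 0.42, which was not a retained call.

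Enzymes of serine synthesis and of the folate cycle, which feed purines and thymidylate, fell in 11 of 18 cases with none higher (median -0.39). Aldh1l2, a mitochondrial formyltetrahydrofolate dehydrogenase, fell 4.89-fold from 8.94 and 8.82 to 6.53 and 6.65, below the 7.44 to 10.33 of the other lines. Aldh18a1, of proline synthesis, fell 2.15-fold, and Psat1, of serine synthesis, 2.02-fold from 11.04 and 11.05 to 10.07 and 10.00. Of 18 aminoacyl-tRNA synthetases 6 fell, Vars at -0.65 the most. Ribosome biogenesis went the same way: Dkc1 fell by 0.88, Nop56 by 0.75 and Myc by 0.70 among 12 of 30 lower, and Mxd4, a Myc antagonist, was the 1 that rose, at 0.76. Retained calls made up 7 of the 11, 4 of the 6 and 6 of the 12. With all 17 arrays limma called 0 members of these 3 lists, with 2, 0 and 3 lower at an unadjusted p under 0.05. The amino acid response element, letters TTGCATC on either strand, stood in 2.8% of all promoter windows. It stood in 6 of 22 windows of the ATF4 list, but in 1 of 7 of its members that fell. Serine and one-carbon enzymes held it in 0 of 16 windows. The synthetases held it in 3 of 11, but in 0 of 2 of those that fell.

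Matrix genes split by gene rather than by class. Loxl1 and Lox, which crosslink elastin and collagen, fell 2.66-fold and 2.24-fold, while Loxl4 of the same family rose 2.47-fold from 7.53 and 7.56 to 8.89 and 8.82. Loxl1 went from 8.32 and 8.18 to 6.80 and 6.89, below the 8.04 to 8.56 of the other lines. Vcan, the proteoglycan versican, fell 3.14-fold from 7.93 and 7.42 to 5.93 and 6.12, which brought it into the 4.91 to 6.33 of the other lines. The collagens Col3a1, Col1a2 and Col6a3 fell by 0.80, 0.79 and 0.78, and Col4a5 rose by 0.72. Transglutaminase Tgm2 rose from 7.54 and 7.36 to 8.42 and 8.49, and the latent TGF-beta binding proteins Ltbp1 and Ltbp4 fell 2.37-fold and 2.09-fold.

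Mmp3, stromelysin, fell 2.43-fold from 6.21 and 6.17 to 5.00 and 4.82, yet stayed above the 4.04 to 4.38 of all other lines. Its promoter is known for an AP-1 site, and the 110 bases before its start, the plus strand of chr9:7445712-7445821 (RefSeq, GRCm38.p6), hold the AP-1 letters TGANTCA once, in capitals:
Mmp3: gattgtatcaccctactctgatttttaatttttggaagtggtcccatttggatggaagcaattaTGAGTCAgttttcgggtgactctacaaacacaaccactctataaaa
These letters stood in 8.1% of all windows and in 5 of 15 windows of matrix proteases and their inhibitors. Within that list they were in 1 of 3 windows of members that fell and 0 of 2 of members that rose. They stood in 6.9% of windows of all genes that fell and in 0 of 20 windows of the immediate early and AP-1 list. Of 26 immediate early and AP-1 genes 7 fell and 2 rose (34.6% called, against 14.7% of all genes). The subunit gene Jun fell by 0.83 and Fosl2 by 0.60; Fosl2 changed by -1.09 and -1.27 in the dnChd4 and dnSnf2h lines. Adamts1 and Mmp14 fell 2.36-fold and 1.52-fold, and Timp1, a protease inhibitor, rose 1.47-fold.

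Of 30 adhesion receptors 7 rose and 6 fell (43.3% called, against 14.7% of all genes). Itga1, a collagen-binding integrin, rose 2.22-fold from 5.57 and 5.43 to 6.56 and 6.73, and Itgav and Sdc2 rose 1.66-fold and 1.58-fold. None of the 6 falls was a retained call, whereas 6 of the 7 rises were. Factors of epithelial-mesenchymal transition fell in 4 of 18 cases and none rose (22.2% called). Snai2 fell 2.69-fold from 9.50 and 9.28 to 8.03 and 7.89 and Zeb2 1.67-fold. Krt14, a basal keratin, fell 2.44-fold. The fibroblast markers Pdgfrb, Col3a1 and Col1a2 fell in the same arrays, in which 5 of 13 fibroblast markers fell and none rose; the part of a change in cell makeup in the matrix results was not tested. Lyz2, a lysozyme used as a myeloid marker, rose 2.53-fold from 6.19 and 6.32 to 7.59 and 7.59. Cd68, another macrophage marker, fell by 0.48, which was not a retained call, and the other 12 of 14 were not called. Ptprc, Csf1r and Adgre1, which define leukocytes and macrophages, stayed among the dimmest 30% of genes.

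Of 28 genes of SWI/SNF subunits 1 rose (Smarcd1 at 0.31) and 3 fell, so that 14.3% were called, near the 14.7% of all genes. Smarca2, the alternative ATPase, read 9.52 and 9.24 when repressed and 8.69 and 8.73 when induced, a 1.60-fold fall (limma adjusted p = 0.00626), and it was the only retained call of the 4. Smarcc1 and Actl6a fell by 0.47 and 0.35. Among other remodeler ATPases Chd3 rose by 0.53, and Smarca5, at -0.10, was not called. Nr3c1, the glucocorticoid receptor, was not called at 0.15. Of 22 genes of the receptor and its targets 3 rose and 4 fell (31.8% called). Those that fell included Lcn2 and the kinase Sgk1, which fell 1.81-fold.

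**Figure D2:**
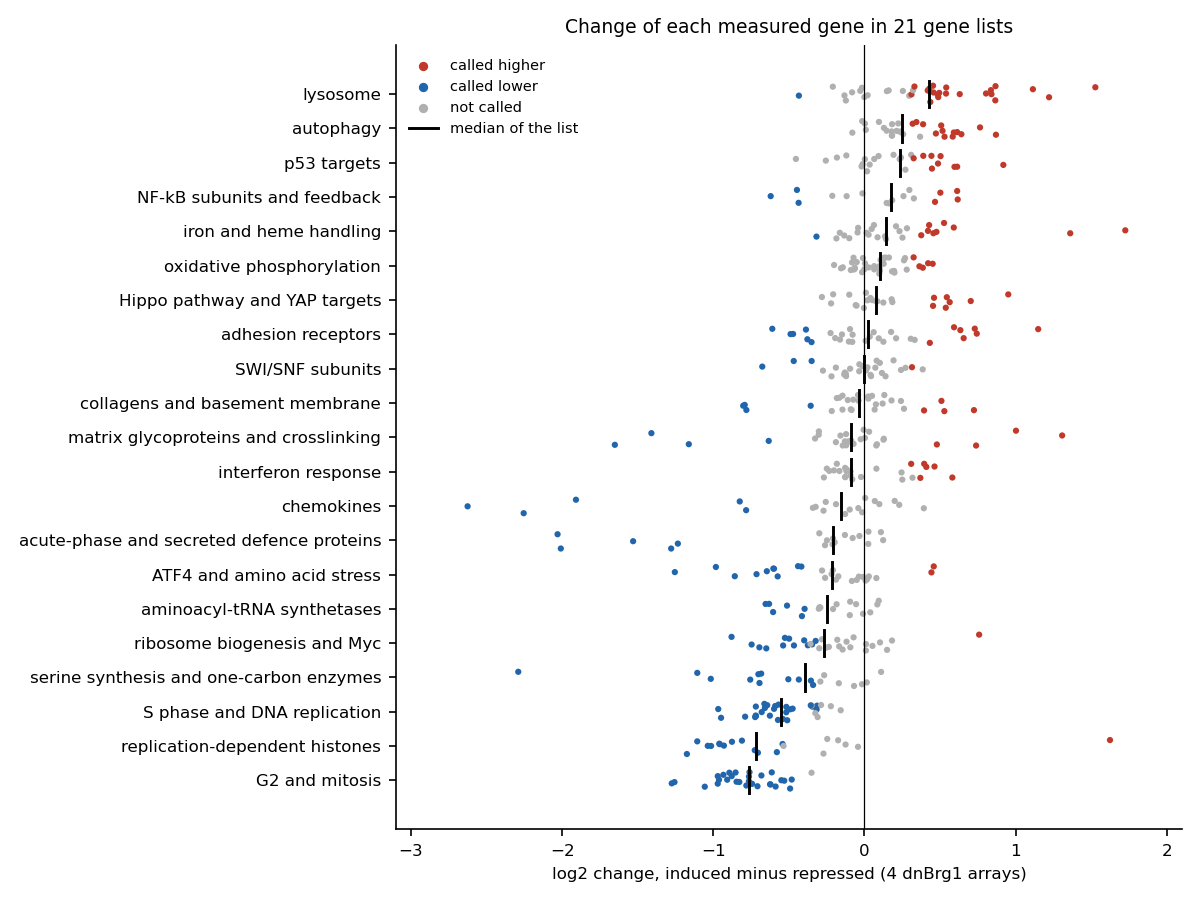
Log2 change on dnBrg1 induction (horizontal axis) of every measured gene in 21 lists, ordered by list median (black bar); red points were called higher, blue points lower and grey points not called. The lysosome list has the highest median, 0.43, and the G2 and mitosis list the lowest, -0.76, with all of its points left of 0.

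The same drug withdrawal in the dnChd4 and dnSnf2h lines gives a direct comparison, since the lines share no arrays. Across the 2938 called genes the dnBrg1 change had the sign of the dnChd4 change in 93.3% and of the dnSnf2h change in 93.7%, against 69.2% and 67.0% of all genes. The changes correlated at r = 0.672 with dnChd4 and r = 0.690 with dnSnf2h across all genes, which are not independent replicates and share the array platform. Lists moved together too. The G2 and mitosis median was -0.74 in the dnChd4 and -0.75 in the dnSnf2h line, the replication median -0.71 and -0.75, and the lysosome median 0.44 and 0.34. None of the genes of the G2 and mitosis or replication lists had a difference between lines that was called.

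A difference between lines was tested for each gene in the 12-array fit. The dnBrg1 change was called higher than the dnChd4 change in 56 genes (0.281%) and lower in 198 (0.993%), and called higher than the dnSnf2h change in 58 (0.291%) and lower in 68 (0.341%). Of the 2938 genes called in the dnBrg1 line, 166 (5.65%) differed from either line. In 21 genes that rose both differences were called higher, and in 23 that fell both were called lower. With all 17 arrays the 2 counts of differences were 26 and 7, and they varied with single arrays, from 106 to 205 for dnChd4 and from 46 to 265 for dnSnf2h, the last without repressed replicate 1 of the dnSnf2h line.

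**Figure D3:**
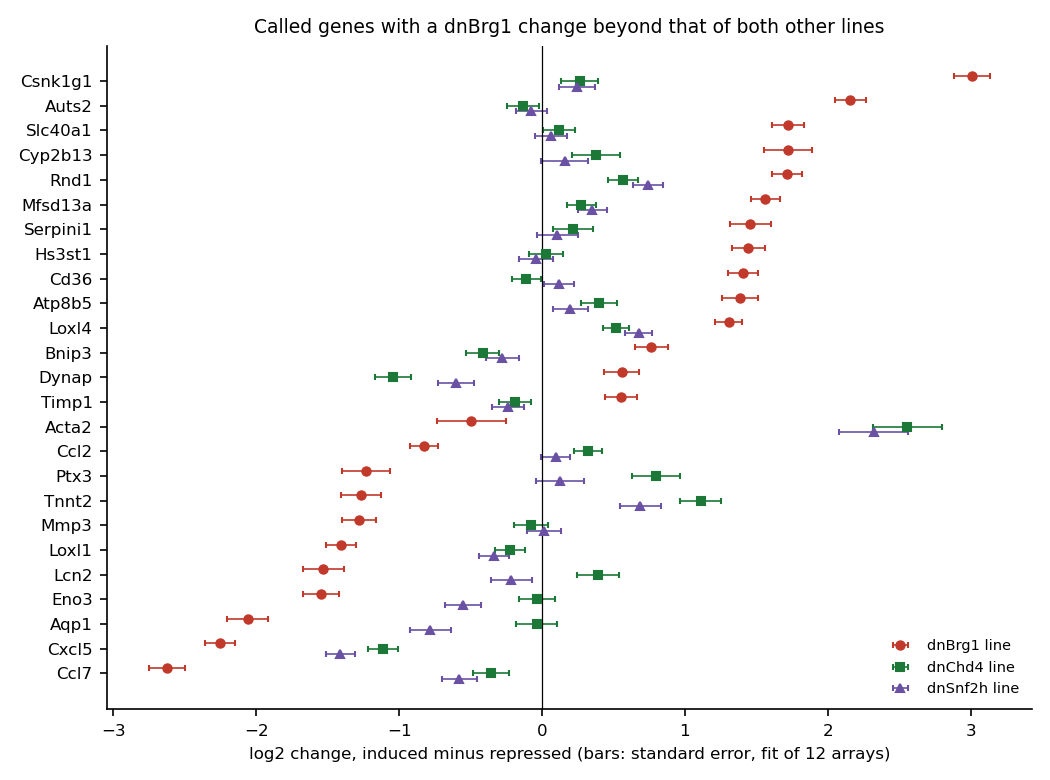
Log2 change on induction (horizontal axis) in the dnBrg1 (red circles), dnChd4 (green squares) and dnSnf2h (purple triangles) lines for the 25 named genes that were called in the dnBrg1 line and whose change differed from both others in the direction of that call; bars are standard errors of the 12-array fit. Csnk1g1, Auts2 and Slc40a1 rose in the dnBrg1 line and lie near 0 in the others, and Acta2 has its 2 high values in the other lines.

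Csnk1g1 and Auts2 showed the clearest differences. Against the rise of 3.01 in the dnBrg1 line, Csnk1g1 changed by 0.26 in the dnChd4 and 0.24 in the dnSnf2h line (limma adjusted p of the differences = 1.16e-06 and 4.25e-06). Auts2 changed by -0.13 and -0.07 there, against 2.16 (limma adjusted p = 1.43e-06 and 6.12e-06). Slc40a1 changed by 0.12 and 0.06, Cd36 by -0.11 and 0.12, and Hs3st1 by 0.03 and -0.04, and all their differences were called. Loxl4 rose in part in the other lines, by 0.52 and 0.68 against 1.31. Bnip3 and Dynap had opposite signs, 0.76 and 0.56 in the dnBrg1 line against -0.41 and -1.04 in the dnChd4 line and -0.28 and -0.60 in the dnSnf2h line.

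Among genes that fell, Ccl7 changed by -0.36 and -0.58 in the dnChd4 and dnSnf2h lines against -2.63, and Cxcl5 by -1.11 and -1.41 against -2.25. Ccl2 fell by 0.82 in the dnBrg1 line and changed by 0.32 and 0.10 in the others. Lcn2 changed by 0.39 and -0.21 against -1.53, Ptx3 by 0.80 and 0.13 against -1.23, and Loxl1 by -0.22 and -0.33 against -1.41. Mmp3 changed by -0.08 and 0.01, but its arrays in those lines all lay under the 4.74 of the dimmest genes, which left little room for a fall. Aqp1 changed by -0.04 and -0.78. Both differences were called in each of these 8 genes. For Saa3, Cxcl12 and S100a4 the difference was called against dnChd4 only, and against dnSnf2h the adjusted p was 0.212, 0.065 and 0.0692.

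Chemokines did not share this pattern throughout. Cxcl3 changed by -1.93 and -2.01 in the other lines, against -0.78 in the dnBrg1 line. Tnnt2, a troponin of heart muscle, moved in opposite directions, 2.41-fold lower in the dnBrg1 line and higher by 1.11 and 0.69 in the others (limma adjusted p of the differences = 1.03e-05 and 0.000273). Among the 44 genes with both differences called in the direction of their own change, picked after their values were seen, Angptl4, an inhibitor of lipoprotein lipase, rose by 0.96 against 0.01 and 0.02, and Sting1, the adaptor of cytosolic DNA sensing, fell by 1.02 against positive changes of 1.10 and 0.48.

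Some strong responses of the other lines were smaller or not called in the dnBrg1 line. Acta2, smooth muscle actin, read 6.35 and 6.62 in repressed and 6.01 and 5.97 in induced dnBrg1 arrays, a fall of 0.50 that was not a retained call (adjusted p up to 0.646 with 1 array dropped). It rose by 2.56 in the dnChd4 and 2.32 in the dnSnf2h line (limma adjusted p of the differences = 0.000187 and 0.00119). Nppb, a natriuretic peptide, changed by -0.01 against 2.31 and 2.06, and Rptor, the Raptor subunit of the mTOR complex, by 0.20 against 1.76 and 1.98. Mcam, an adhesion molecule of the immunoglobulin family, rose by 0.74 against 3.78 and 2.02. Tagln and Susd2 rose by 2.53 and 2.92 in the dnChd4 line, and neither was called in the dnBrg1 line, at 0.06 and 0.18.

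The amino acid genes differed in size. Slc1a5, a glutamine transporter, fell by 0.71 in the dnBrg1 line and by 1.61 and 1.78 in the dnChd4 and dnSnf2h lines (limma adjusted p of the differences = 0.0123 and 0.00621). Slc6a9, a glycine transporter, fell by 0.98 against 2.02 in the dnSnf2h line (limma adjusted p = 0.00516). The median of the ATF4 list was -0.21 in the dnBrg1 line, -0.62 in the dnChd4 and -0.77 in the dnSnf2h line, and 6 of its 26 genes had a called difference from dnSnf2h, all with the lower value in the dnSnf2h line. By contrast Aldh1l2 and Slc7a11, the deepest falls among these genes, had no called difference from either line. Atp6v1a and Gstm5 rose in all 3 lines but less with dnBrg1: Atp6v1a by 0.80 against 1.80 and 1.55, and Gstm5 by 1.15 against 3.21 and 1.95.

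**Figure D4:**
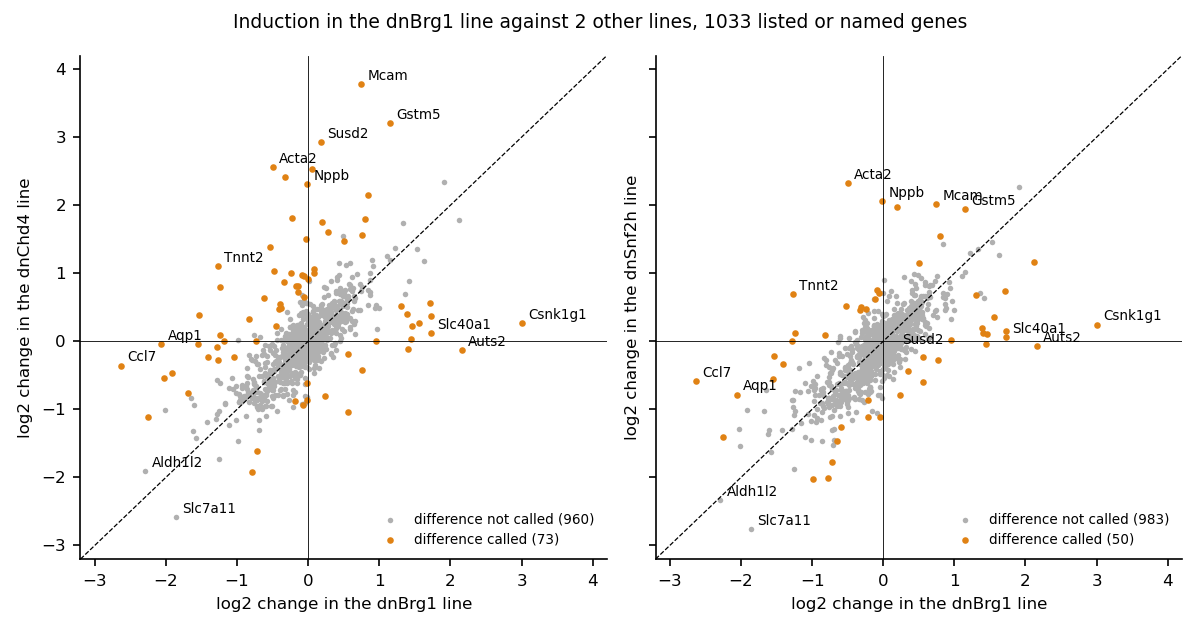
Log2 change in the dnChd4 line (left, vertical axis) and in the dnSnf2h line (right, vertical axis) against the change in the dnBrg1 line (horizontal axis) for 1033 listed or named genes; the dashed line marks equal change. Orange points are genes whose difference between lines was called, 73 on the left and 50 on the right; most genes lie near the dashed line, while Csnk1g1 and Auts2 lie far to its right and Acta2 and Nppb far above it.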

How the data were processed

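RNA was measured on 17 arrays, and the deposited values, 1 for each probe set and array, are on a log2 scale as judged from their range. Per the submitters' processing notes the authors used Affymetrix Expression Console; its version and how it summarized and normalized are not given in the sources. The deposited log2 values were used unscaled. Of 35557 probe sets, 21789 had 1 gene symbol; genes with several probe sets were read from the brightest on average, which left 19938 genes. The 4 dnBrg1 arrays were fitted in limma 3.58.1 under R 4.3.3 with 1 mean per group (2 residual degrees of freedom, and 5.69 prior degrees of freedom from the spread over all genes). P-values were adjusted by Benjamini-Hochberg over all genes, and adjusted p under 0.05 was called. Differences between lines came from 1 fit of the 12 dominant-negative arrays. Every gene p-value here is from limma; the code was tested on simulated data. The genes, the 46 lists (1115 entries, 1039 measured) and the motifs were chosen with earlier results of these data known; lists were described, not tested. Named were the 15 highest and 15 lowest called changes, up to 4 called members per list by smallest adjusted p (or 1 where none was called), the 5 highest and 5 lowest called differences per line, and Smarca4, Smarca2, Chd4, Smarca5 and Nr3c1; predicted genes, olfactory and vomeronasal receptors, microRNAs and small nucleolar RNAs were left out. Orm3, Cxcl3, Lamp1, Mcoln1, Top2a, Cdc20, Bub1, Gata3, Atf4, Tfeb, Angptl4, Sting1 and the dim markers were named outside that rule, after their values were seen. Promoter windows and sequences are RefSeq's, build GRCm38.p6, and no other coordinates were used. Alternatives were all 12 or 17 arrays, a block for the replicate number, a trended and robust variance, no dim genes, quantile normalization, median centring, the mean of a gene's probe sets, all probe sets, and each array left out; leaving arrays out of the 12-array fit was added after seeing the data.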

Additional observations from a re-analysis of the deposited data

Results flagged for a closer look

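Each value in this part is a difference between lines, the dnBrg1 change minus the change of another line on the log2 scale, that passed limma's test of the difference in the 12-array fit. The genes are those named by rule, so they are a selection and not a count over the genome.

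Against the dnChd4 line, Csnk1g1 was higher by 2.75, Auts2 by 2.29, Slc40a1 by 1.61, Dynap by 1.60 and Cd36 by 1.52. Hs3st1 stood at 1.42, Cyp2b13 at 1.35, Mfsd13a at 1.29, Serpini1 at 1.24 and Rnd1 at 1.15. Bnip3 reached 1.18 and Atp8b5 0.98. The smallest of these rises were Slc1a5 at 0.90, Loxl4 at 0.79 and Timp1 at 0.74, of which Slc1a5 reflects a lesser fall in the dnBrg1 line.

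The difference was the other way for Acta2 at -3.05, Mcam at -3.03, Tagln at -2.47, Tnnt2 at -2.38 and Nppb at -2.32. Susd2 and Ms4a4d both stood at -2.74. Chd4, which rose in its own dominant-negative line, stood at -2.04. Among genes of secreted and defence proteins were Ccl7 at -2.27, Ptx3 at -2.03, Lcn2 at -1.92, Saa3 at -1.49, Cxcl12 at -1.44, Ccl2 at -1.15 and Cxcl5 at -1.14. Transport and metabolism genes were Aqp1 at -2.02, Eno3 at -1.51, Plin4 at -1.19, Atp6v1a at -0.999 and Irs1 at -0.99. The glutathione transferases Gstm5 and Gstm1 stood at -2.06 and -1.26, and Rptor at -1.56. Matrix genes were Adamts1 at -1.34, Mmp3 at -1.20 and Loxl1 at -1.19. The growth factor Gdf11 was at -1.30, the phagocyte marker Cd68 at -1.51 and S100a4 at -0.92. Regulators and histones were Tcf4 at -0.87, Mxd4 at -0.80, H1f1 at -0.80 and Klf6 at -0.74.

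Against the dnSnf2h line the order at the top was alike, with Csnk1g1 at 2.76, Auts2 at 2.23, Slc40a1 at 1.66, Cyp2b13 at 1.57 and Hs3st1 at 1.48. Serpini1 stood at 1.35, Cd36 at 1.29, Mfsd13a at 1.21, Atp8b5 at 1.19 and Dynap at 1.16. The amino acid transporters Slc1a5 and Slc6a9 were at 1.06 and 1.03, Bnip3 at 1.04, Rnd1 at 0.97 and Dhx40 at 0.95. Timp1 was at 0.79, Fosl2 at 0.67 and Loxl4 at 0.63. On the other side Acta2 stood at -2.82, Nppb at -2.07, Ccl7 at -2.05, Tnnt2 at -1.96 and Rptor at -1.78. Ptx3 was at -1.36, Lcn2 at -1.32, Mmp3 at -1.29, Aqp1 at -1.28, Mcam at -1.28 and Loxl1 at -1.07. Eno3 stood at -0.99, Ccl2 at -0.92, Cxcl5 at -0.84, Gstm5 at -0.80, Ms4a4d at -0.79 and Atp6v1a at -0.75.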

How the results depend on the processing

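With 2 arrays a group, the spread had to be shared across genes, and the count of calls moved with the arrays in the fit: 2938 with 4 arrays, 2839 with 12 and 68 with all 17. Testing all probe sets called 1081. The replicate block called 3737, but replicate numbers did not pair the dnBrg1 samples (r = 0.0160 between their deviations, with 2 pairs). Dropping 1 array from the 4 left 1 residual degree of freedom, and limma then called 0 genes in each case, with 2828 to 6733 at an unadjusted p under 0.05; in the 12-array fit 1353, 1397, 1741 and 2175 remained. Differences from dnChd4 numbered 254, 26 with all 17 arrays, 89 over all probe sets, 367 with the replicate block, and 106 to 205 with 1 array dropped. Differences from dnSnf2h numbered 126, and 7, 26, 185 and 46 to 265 under the same settings. Robust variance (3518), removal of dim genes (3466), quantile normalization (3542, of which 1817 rose), median centring (3111, of which 1948 rose) and averaged probe sets (2941) kept the main count within 1.5 times; centring moved the median of all genes by 0.0347. Of the tested values of 200 named results, 1 turned its sign. It was the uncalled change of Smarca5, 0.0726 without repressed replicate 1 and -0.27 without repressed replicate 2. Fits that altered only the estimate of spread, such as those of 12 or 17 arrays, left every change as it was. No sign could turn there. Of the 200, 160 lost their call with all 17 arrays and 59 when all probe sets were tested. Of 25 list counts of 5 or more, 24 stayed within 1.5 times with 12 arrays, and 18 came to none with all 17 arrays. Since the changes were the same with 4 and with 17 arrays, the loss of calls lies in the estimate of spread. Why that estimate differed was not tested.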

Other observations

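Called shares of the lists below are read against 14.7% of all genes. Of 27 genes of fatty acid uptake and storage 7 rose and 5 fell (44.4% called): Pnpla2, the lipase that opens lipid droplets, rose 1.92-fold from 7.53 and 7.49 to 8.51 and 8.40, while Plin4, a droplet coat protein, fell 2.27-fold and Fabp5, a fatty acid carrier, 1.81-fold. Pparg, the adipocyte regulator, was not called at -0.18. In the insulin-like growth factor system 3 of 16 genes fell and none rose (18.8%, near the share of all genes), with Irs1, the adaptor of the insulin receptor, falling 2.40-fold from 9.93 and 9.81 to 8.65 and 8.56 and Igfbp4 1.91-fold. Of 23 genes of the Hippo pathway and its YAP targets 7 rose and none fell (30.4%), among them F3 (tissue factor), 1.93-fold higher, and Nt5e, 1.63-fold higher.

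Of 38 respiratory chain genes 5 rose and none fell (13.2%, under the share of all genes), Ndufa1 the most at 0.45, and none of the 5 was kept whichever dnBrg1 array was dropped. Of 18 clock genes 4 fell and none rose (22.2%), Bhlhe41 the most at -0.76. In the unfolded protein response 4 of 24 rose, the sensor Ern1 the most at 0.66, and 2 fell (25.0%). Letters of an NF-kB motif stood in 5.7% of all promoter windows. They were in 6 of 14 chemokine, 2 of 13 acute-phase and 7 of 13 NF-kB gene windows. Of members that fell, 1 of 2 chemokine and 1 of 5 acute-phase windows held them.

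The repressed dnBrg1 arrays already differed from the other lines at many of the genes that changed. Among the 1316 genes that fell, both repressed arrays lay above all 13 arrays of the other lines in 365 (27.7%), against 7.18% of all genes, and among the 1622 that rose they lay below all 13 in 268 (16.5%), against 5.45% of all genes. The repressed values also enter the change, so these shares are not independent of it. The repressed arrays lay within the range of the 13 arrays and the induced arrays outside it (both beyond all 13) in 389 of the genes that rose, 155 of those that fell and 1523 of all 19938. The move from outside to inside was made by 232, 326 and 1195.

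Genes beside the highest risers were read in RefSeq order. Of the 5 measured genes on each side of Csnk1g1, Oaz2 rose by 0.90 and Trip4 by 0.60, and Pclaf, a proliferation gene next to Csnk1g1, fell by 0.61 (limma adjusted p = 0.00079, 0.00537 and 0.00348). The 7 others ranged from -0.10 to 0.17 and were not called. None of the 10 neighbours of Auts2 was called, with changes from -0.32 to -0.03.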
